A study of Mus musculus with 8 samples.

Results

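The protein disulfide isomerases and the oxidases that recharge them were examined as a family of 10 genes in beta cell samples of mice on high-fat or on control feeding. The members were taken by gene name from the annotation of the arrays: the isomerases P4hb, Pdia2, Pdia3, Pdia4, Pdia5 and Pdia6, the oxidases Ero1l and Ero1lb, the peroxiredoxin Prdx4, and Creld2. They are 10 of the 30028 gene names on the arrays and have 13 probes, 1 each for 7 genes and 2 each for Pdia2, Pdia6 and Prdx4. Where a gene has 2 probes they are numbered along the chromosome.

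The samples came from C57BL/6 mice, 4 on the high-fat diet and 4 on the control diet, which the sample labels also call chow. RNA from each biological replicate was hybridised to an Agilent array of its own with the dye Cy3. The labels name the cells as pancreatic beta cells. How the cells were isolated, the age and sex of the animals, the length and composition of the diets and whether animals were pooled are not given in the sources used here. All 10 beta cell markers measured were well above background on every array, among them the insulin gene Ins1, whose log2 level was 8.28 ± 0.32 in high-fat samples and 8.26 ± 0.26 in control samples (SD, n = 4 each). Markers of exocrine acinar cells and the hormones of alpha and delta cells were also well above background on all 8 arrays.

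Secreted and membrane proteins form their disulfide bonds in the endoplasmic reticulum (ER), where isomerases of the thioredoxin fold pass oxidising equivalents to client proteins and reshuffle wrong bonds. The flavoenzymes of the Ero1 family reoxidise P4hb with oxygen and release hydrogen peroxide, which the ER peroxiredoxin Prdx4 can use to oxidise isomerases in turn. In beta cells proinsulin, which carries its own disulfide bonds, is the main client of this system, and many of its genes are targets of the unfolded protein response.

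Some promoters of the family carry the ER stress element, a bipartite sequence known as a response element of the unfolded protein response. Its letters, CCAAT and CCACG with 9 bases of any kind between them, were looked for on both strands in the RefSeq windows of GRCm38.p6, which run 250 bases before to 50 bases after each gene's start. The 10 members all had a window, and 3 of them held the whole element, against 39 of 32851 windows of all genes (0.119%). The windows of these 3 genes are shown because they hold it. Capitals mark both parts of the element, and on the reverse strand these read CGTGG and ATTGG. The windows lie on the + strand at chr12:17266339-17266638 for Pdia6, chr13:12565633-12565932 for Ero1lb and chr15:88819396-88819695 for Creld2.
Pdia6: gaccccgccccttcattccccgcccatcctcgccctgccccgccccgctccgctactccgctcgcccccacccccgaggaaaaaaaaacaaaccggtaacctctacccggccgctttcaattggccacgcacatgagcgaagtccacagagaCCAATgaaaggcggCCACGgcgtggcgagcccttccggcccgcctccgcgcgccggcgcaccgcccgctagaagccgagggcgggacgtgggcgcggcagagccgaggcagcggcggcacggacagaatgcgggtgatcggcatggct
Ero1lb: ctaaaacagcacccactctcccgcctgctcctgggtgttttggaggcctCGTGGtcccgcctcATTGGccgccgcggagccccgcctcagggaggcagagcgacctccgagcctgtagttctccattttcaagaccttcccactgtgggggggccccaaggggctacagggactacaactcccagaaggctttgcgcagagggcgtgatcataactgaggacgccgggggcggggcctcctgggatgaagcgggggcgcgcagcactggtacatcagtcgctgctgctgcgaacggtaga
Creld2: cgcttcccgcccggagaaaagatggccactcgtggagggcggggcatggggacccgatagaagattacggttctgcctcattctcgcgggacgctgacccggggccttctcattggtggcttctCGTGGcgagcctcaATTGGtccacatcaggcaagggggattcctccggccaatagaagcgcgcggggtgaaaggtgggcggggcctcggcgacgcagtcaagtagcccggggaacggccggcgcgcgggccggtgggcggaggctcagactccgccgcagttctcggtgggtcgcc

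In the windows as printed, the first base of the element lies 98 bases before the start of Pdia6, on the strand of the gene. It lies 201 bases before the start of Ero1lb and 126 bases before that of Creld2, on the opposite strand in both. Its parts alone were common. CCACG stood in 9 of 10 members, against 32.8% of all windows, and CCAAT in 8 of 10, against 37.4%, and both counts include the whole elements. The related element ERSE-II (ATTGG and CCACG with 1 base of any kind between them) and the element UPRE (TGACGTGG) stood in 0 of 10 members, against 0.0365% and 0.676% of all windows. The amino acid response element, searched as TTGCATCA, stood in 0 of 10, against 0.895%, and ACGTG, the core of hypoxia response elements, in 6 of 10, against 19.6%. The core ACGTG overlaps CCACG where they meet on opposite strands and lies within UPRE. A match is a match of letters only.

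**Figure D1:**
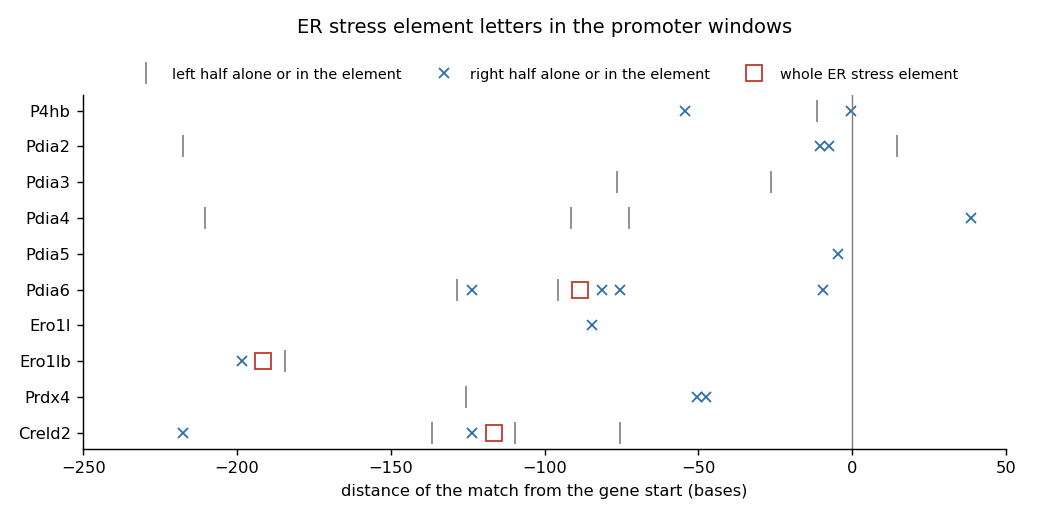
Positions of the ER stress element and of its parts in the promoter windows of the 10 genes. The horizontal axis is the distance of the centre of a match from the gene start in bases, bars stand for CCAAT, crosses for CCACG on either strand, and squares for the whole element, which appears in Pdia6, Ero1lb and Creld2.

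Levels are given as the log2 of the processed signal minus the 75th percentile of the array, so that 0 is the signal at that percentile, and each probe is compared only with itself. All 13 member probes were well above background on all 8 arrays, and none was saturated. All 13 had a difference above 0, high-fat minus control, where 47.5% of the 26082 probes tested did, but 11 of 13 did with quantile normalization or the deposited values and 6 of 13 with normexp background correction. Normexp is a model-based background correction, and on high-fat replicate 2 its fit included 7 spots with a local background over 4 times the array's median, where the other arrays had 0. Without such spots 12 of 13 lay above 0. An unadjusted p under 0.05 was reached by 4 member probes, those of Creld2, P4hb and Pdia4 and probe 1 of Pdia6, all higher in high-fat samples. Of all probes tested, 2.33% were higher and 3.45% lower by that measure. The count of 4 came to 1 without high-fat replicate 2, 3 or 4 or control replicate 1, to 1 with quantile normalization or the deposited values, and to 0 with normexp background correction. No member passed the test across all probes: limma with Benjamini-Hochberg adjustment called 0 of 13 member probes and 0 of 26082 probes (0%) at an adjusted p under 0.05, against 1508 probes (5.78%) at an unadjusted p under 0.05. The adjusted p of the members ran from 0.737 to 0.993, and the lowest of all probes was 0.154. A trended, robust eBayes called 1 probe, which was no member. The groups overlapped for every member probe, whereas 1.6% of the probes tested had all high-fat arrays above all control arrays.

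**Figure D2:**
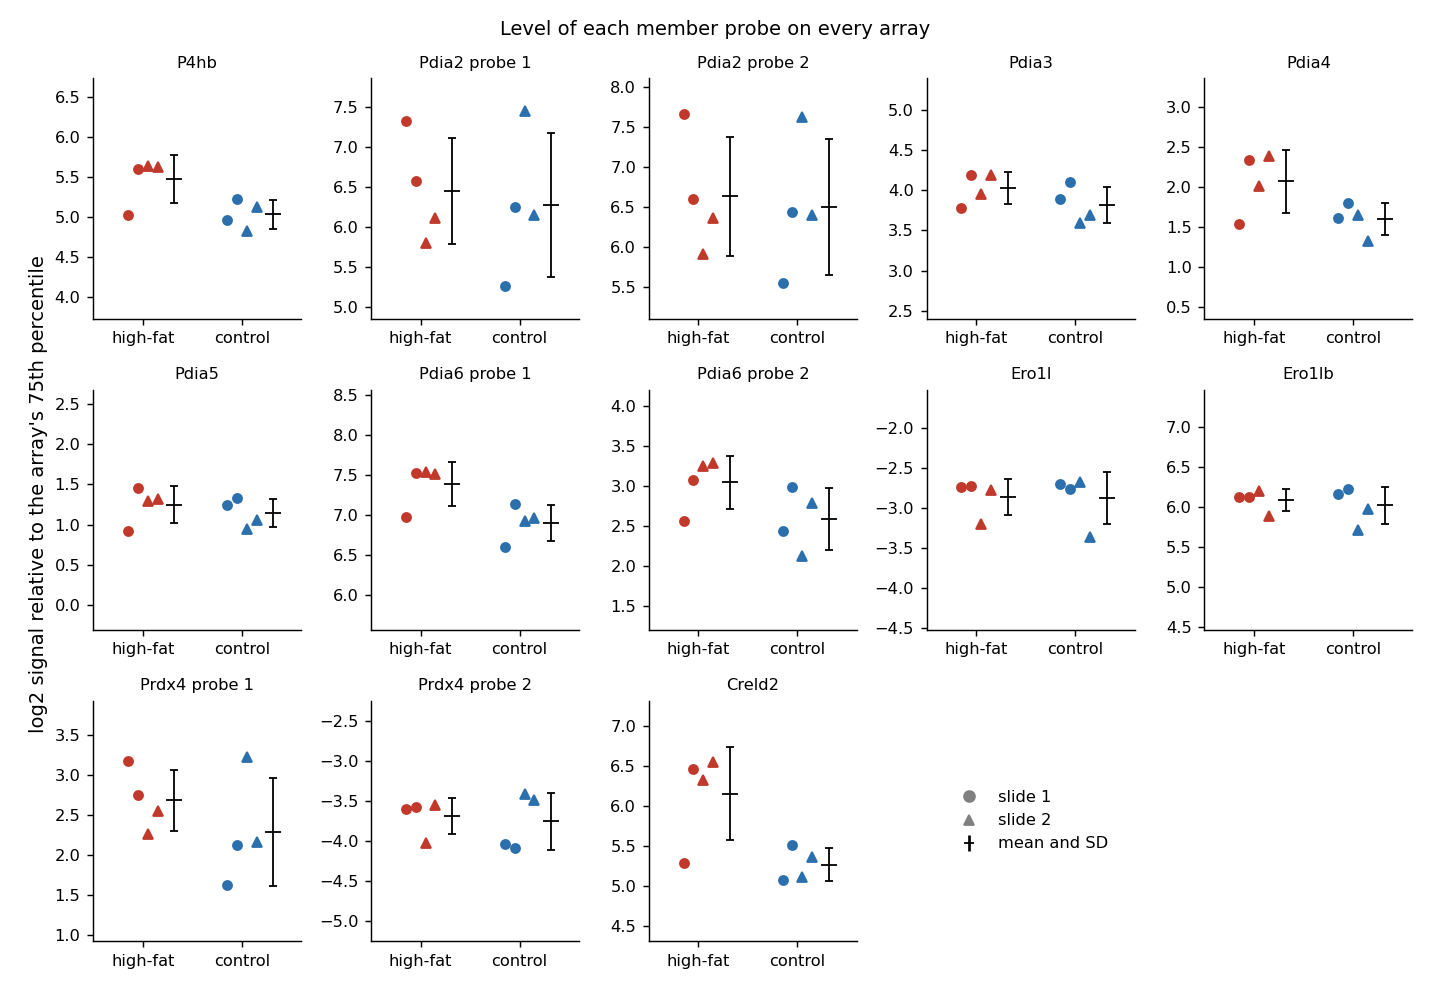
Level of each member probe on every array, as log2 signal relative to the array's 75th percentile, with high-fat arrays in red on the left and control arrays in blue on the right of each panel. Circles are arrays of slide 1, triangles those of slide 2, and the bars give mean and SD (n = 4). All panels overlap, and for Creld2, P4hb, Pdia4 and Pdia6 a lone high-fat circle, replicate 1, sits among the controls.

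The arrays lay on 2 slides of 4, scanned in separate sessions, with 2 arrays of each diet on each slide. High-fat arrays stood at positions 2 and 4 and control arrays at positions 1 and 3 of both slides, so position on the slide and diet cannot be told apart. The 75th percentile of an array was between 363.4 and 472 intensity units in high-fat samples and between 333.6 and 710.8 in control samples. High-fat replicate 1 lay inside the range of the control arrays for 11 of 13 member probes, against 6, 8 and 7 for replicates 2, 3 and 4. It was the lowest high-fat array for 7 of the 13 and the highest for 3. Replicate 3 was the lowest for 5 and the highest for 3. Without high-fat replicate 1, all probes at an unadjusted p under 0.05 came to 2703 (10.4%). Without control replicate 3 they came to 2477 (9.5%), and with all 8 arrays to 1508 (5.78%).

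The classical isomerases are described first. P4hb, the founding isomerase and also a subunit of collagen prolyl hydroxylase and of the microsomal triglyceride transfer protein, had log2 levels of 5.02, 5.60, 5.64 and 5.62 in high-fat replicates 1 to 4, against 4.96, 5.23, 4.82 and 5.13 in control replicates 1 to 4. High-fat replicates 2, 3 and 4 exceeded all controls and replicate 1 lay among them. The difference was 0.43 ± 0.17 (SE), a 1.35-fold higher signal, with an unadjusted p of 0.0336 and an adjusted p of 0.818 by limma. It was 0.22 on slide 1 and 0.65 on slide 2. Without single samples it ran from 0.36 to 0.59, the highest without high-fat replicate 1. With normexp background correction it was 0.010, and 0.43 when the spots of high background were left out. Its probe lies on chromosome 11 (120422076 to 120422135, mm9, - strand), and whether it reads an exon of the coding part or of the 3′ end is not annotated in the files.

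Pdia6 is an isomerase that works beside the chaperone Hspa5 and, in other cells, has been tied to switching off stress sensors of the ER. Its probe 1 (chromosome 12, 17291070 to 17291129, mm9) read 6.97, 7.52, 7.53 and 7.52 in high-fat replicates 1 to 4, against 6.60, 7.13, 6.92 and 6.96 in control replicates 1 to 4. Its probe 2, 253 bases further along and without overlap, read 2.56, 3.07, 3.25 and 3.28 in high-fat replicates, against 2.43, 2.98, 2.11 and 2.79 in control replicates. On both probes high-fat replicates 2, 3 and 4 lay above every control array and replicate 1 did not. The log2 difference was 0.48 ± 0.17 (SE) on probe 1, a 1.40-fold higher signal with an unadjusted p of 0.0228 and an adjusted p of 0.792, and 0.46 ± 0.23 on probe 2, with an unadjusted p of 0.0818 and an adjusted p of 0.883 (limma). Slide 1 gave 0.38 and 0.11 for probes 1 and 2, and slide 2 gave 0.58 and 0.81. Without high-fat replicate 1 the difference was 0.62 on each probe. Without control replicate 1 probe 1 stood at 0.38, and without control replicate 3 probe 2 stood at 0.30. With normexp background correction probe 2 turned to -0.027, and probe 1 stood at 0.060, or at 0.48 without the spots of high background.

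For Pdia3, Pdia4 and Pdia5 the stretch of transcript that was measured is shown, since these 3 related isomerases were each read by a single probe of 60 bases. The sequences are those of the array files, in lower case with no part singled out. On mm9 they lie at chr2:121263343-121263402 (+ strand) for Pdia3, chr6:47746516-47746575 (- strand) for Pdia4 and chr16:35407720-35407779 (- strand) for Pdia5.
Pdia3: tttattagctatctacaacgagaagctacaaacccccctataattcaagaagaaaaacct
Pdia4: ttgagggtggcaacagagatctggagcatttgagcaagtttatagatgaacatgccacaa
Pdia5: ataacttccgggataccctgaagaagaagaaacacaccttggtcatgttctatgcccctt

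Pdia4, also known as ERp72, had log2 levels of 1.54, 2.34, 2.01 and 2.39 in high-fat replicates 1 to 4, against 1.62, 1.80, 1.65 and 1.32 in control replicates 1 to 4. High-fat replicates 2, 3 and 4 were above every control array, and replicate 1 was below 3 of the 4 controls. The difference was 0.47 ± 0.20 (SE), a 1.39-fold higher signal, with an unadjusted p of 0.0478 and an adjusted p of 0.856 (limma). It was 0.23 on slide 1 and 0.72 on slide 2. Without single samples it ran from 0.37 to 0.65, the highest without high-fat replicate 1. Normexp background correction gave 0.095, and 0.48 without the spots of high background.

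Pdia3, also called ERp57, serves glycoproteins held by calnexin and calreticulin. Its levels were 3.77, 4.19, 3.95 and 4.20 in high-fat replicates 1 to 4, against 3.89, 4.10, 3.60 and 3.69 in control replicates 1 to 4. High-fat replicates 2 and 4 lay above every control array, and the other two lay among the controls. The difference of 0.21 ± 0.15 (SE) had an unadjusted p of 0.217 and a 95% confidence interval from -0.15 to 0.56, with -0.016 on slide 1 and 0.43 on slide 2. Leaving out high-fat replicate 1 gave 0.29, and leaving out control replicate 3 gave 0.13.

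Pdia5 had levels of 0.92, 1.45, 1.30 and 1.31 in high-fat replicates 1 to 4, against 1.24, 1.34, 0.94 and 1.06 in control replicates 1 to 4. The groups overlapped throughout, with the lowest level of all 8 arrays in high-fat replicate 1 and the highest in high-fat replicate 2. Its difference of 0.10 ± 0.15 (SE) had a 95% confidence interval from -0.24 to 0.44, with -0.10 on slide 1 and 0.31 on slide 2. Leaving out high-fat replicate 1 gave 0.21 and high-fat replicate 2 gave 0.031, while leaving out control replicate 2 gave 0.16 and control replicate 3 gave 0.033. For both Pdia3 and Pdia5 the sign also turned with normexp background correction, to -0.20 and -0.15.

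Creld2, a small ER protein with a CXXC motif that is induced by ER stress and acts on disulfide exchange, had the largest difference of the 13 member probes. It was printed 10 times on each array, and the SD between its spots lay between 0.032 and 0.093 on the log2 scale. Its levels were 5.29, 6.46, 6.32 and 6.55 in high-fat replicates 1 to 4, against 5.08, 5.51, 5.11 and 5.37 in control replicates 1 to 4. High-fat replicates 2, 3 and 4 were all above every control array, while replicate 1 lay within the range of the controls. The difference was 0.89 ± 0.28 (SE, 95% confidence interval 0.25 to 1.52), a 1.85-fold higher signal, with an unadjusted p of 0.0119 and an adjusted p of 0.737 (limma). Slide 1 gave 0.58 and slide 2 gave 1.19. Without high-fat replicate 1 the difference was 1.18, with an adjusted p of 0.105 by limma. Without high-fat replicate 4 it was 0.75, with an adjusted p of 0.990. Over all alternative settings the adjusted p ran from 0.105 to 1. Normexp background correction gave 0.43, and 0.85 without the spots of high background. The probe lies on chromosome 15 (88656997 to 88657056, mm9, + strand).

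Of the oxidases, Ero1lb, now named Ero1b, is the form that is abundant in the endocrine pancreas, and Ero1l, now Ero1a, is the broadly expressed form induced by hypoxia. Ero1lb had levels of 6.12, 6.12, 6.20 and 5.89 in high-fat replicates 1 to 4, against 6.16, 6.21, 5.71 and 5.98 in control replicates 1 to 4. The highest and the lowest of the 8 levels were both in control arrays. Its difference of 0.066 ± 0.14 (SE) had a 95% confidence interval from -0.26 to 0.39, and its sign turned with normexp background correction (-0.42), quantile normalization (-0.079) and the deposited values (-0.10).

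Ero1l had levels of -2.73, -2.73, -3.20 and -2.78 in high-fat replicates 1 to 4, against -2.70, -2.76, -2.68 and -3.36 in control replicates 1 to 4. A single low array in each group, high-fat replicate 3 and control replicate 4, set the spread. The difference was 0.016 ± 0.19 (SE, 95% confidence interval -0.42 to 0.45), with -0.0011 on slide 1 and 0.034 on slide 2. Normexp background correction gave 0.49, above that interval, and 0.020 without the spots of high background. The signal of Ero1l was low, between 50.07 and 71.08 intensity units in high-fat samples and between 43.26 and 109.2 in control samples. The interval of Ero1l takes in a difference as large as that of P4hb, and the interval of Ero1lb ends below it. The interval of P4hb itself, from 0.043 to 0.83, overlaps both, and no test between the genes was run.

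For Pdia2 and Prdx4 the difference between the diets had opposite signs on the slides. Pdia2, an isomerase known from the acinar cells of the pancreas, was read by a pair of probes that share 42 of their bases, so they are not separate measurements of the transcript. Probe 2 read 7.67, 6.60, 5.91 and 6.36 in high-fat replicates 1 to 4, against 5.55, 6.44, 7.62 and 6.40 in control replicates 1 to 4. High-fat replicate 1 and control replicate 3 were the highest and control replicate 1 the lowest, on both probes. The difference was 0.13 ± 0.49 (SE) on probe 2 and 0.17 ± 0.48 on probe 1. On slide 1 it was 1.14 on probe 2 and 1.20 on probe 1, and on slide 2 it was -0.87 and -0.85. The sign turned with normexp background correction on both probes (-0.36 on probe 2 and -0.24 on probe 1), without high-fat replicate 1 on both (-0.21 and -0.12), and on probe 2 with quantile normalization (-0.041) and the deposited values (-0.065).

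Prdx4 probe 1 read 3.18, 2.75, 2.27 and 2.55 in high-fat replicates 1 to 4, against 1.64, 2.13, 3.23 and 2.17 in control replicates 1 to 4. Its highest arrays were the same as for Pdia2, control replicate 3 and high-fat replicate 1, and its lowest was again control replicate 1. The difference was 0.40 ± 0.34 (SE), with an unadjusted p of 0.273, and it was 1.08 on slide 1 and -0.29 on slide 2. It was 0.23 without high-fat replicate 1, 0.18 without control replicate 1 and 0.71 without control replicate 3, and -0.047 with normexp background correction. Probe 2, which is annotated to the transcript ENSMUST00000123915 and lies 13438 bases from probe 1, read -3.60, -3.58, -4.03 and -3.56 in high-fat replicates, against -4.04, -4.09, -3.41 and -3.49 in control replicates. Its difference was 0.067 ± 0.20 (SE), also with opposite signs on the slides (0.47 and -0.34). Normexp background correction gave 0.64, and 0.083 without the spots of high background. The signal of probe 2 was low, between 28.19 and 39.48 intensity units in high-fat samples and between 27.71 and 43.26 in control samples.

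The 15 acinar marker genes followed the order of Pdia2 and Prdx4 probe 1 at its ends. Their mean log2 level was 7.45, 7.06, 6.52 and 6.80 in high-fat replicates 1 to 4, against 6.21, 6.84, 7.39 and 6.77 in control replicates 1 to 4. High-fat replicate 1 and control replicate 3 were again highest and control replicate 1 lowest. Of the 15 genes 13 lay above 0 and none was at an unadjusted p under 0.05. Their median difference of 0.12 was -0.29 with normexp background correction, and 0.12 when the spots of high background were left out. The slides differed in sign: the median was 0.58 on slide 1 alone, with 15 of 15 genes above 0, and -0.40 on slide 2 alone, with 1 of 15. Their summed log2 level ran from 11.51 to 12.34 in high-fat samples and from 11.23 to 12.26 in control samples, and none of the 15 was below background on any array, with the elastase Cela1 at 0.064 ± 0.27 (SE). The part of acinar RNA in the levels of Pdia2 and Prdx4 was not tested.

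**Figure D3:**
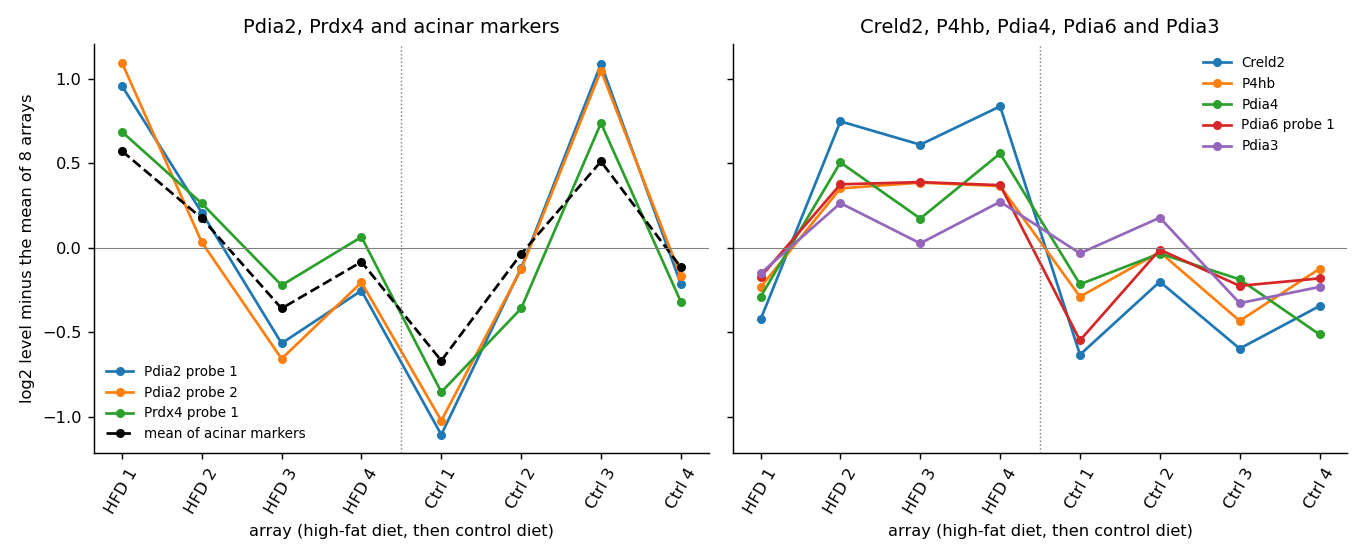
Log2 level on each array minus the mean of the 8 arrays, for Pdia2, Prdx4 probe 1 and the mean of 15 acinar markers (left) and for Creld2, P4hb, Pdia4, Pdia6 probe 1 and Pdia3 (right), with high-fat arrays before control arrays on the horizontal axis. The left-hand genes peak on high-fat replicate 1 and control replicate 3, and the right-hand genes are highest on high-fat replicates 2, 3 and 4, apart from Pdia3, which control replicate 2 also reached.

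Across the slides, 5 of 13 member probes had a difference above 0 on both: those of P4hb, Pdia4 and Creld2 and both of Pdia6. The other 8 had opposite signs, which includes every probe of Pdia2, Pdia3, Pdia5, Prdx4, Ero1l and Ero1lb. The same 5 probes were those with at least 3 high-fat arrays above every control array, a pattern found in 7.82% of the probes tested.

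**Figure D4:**
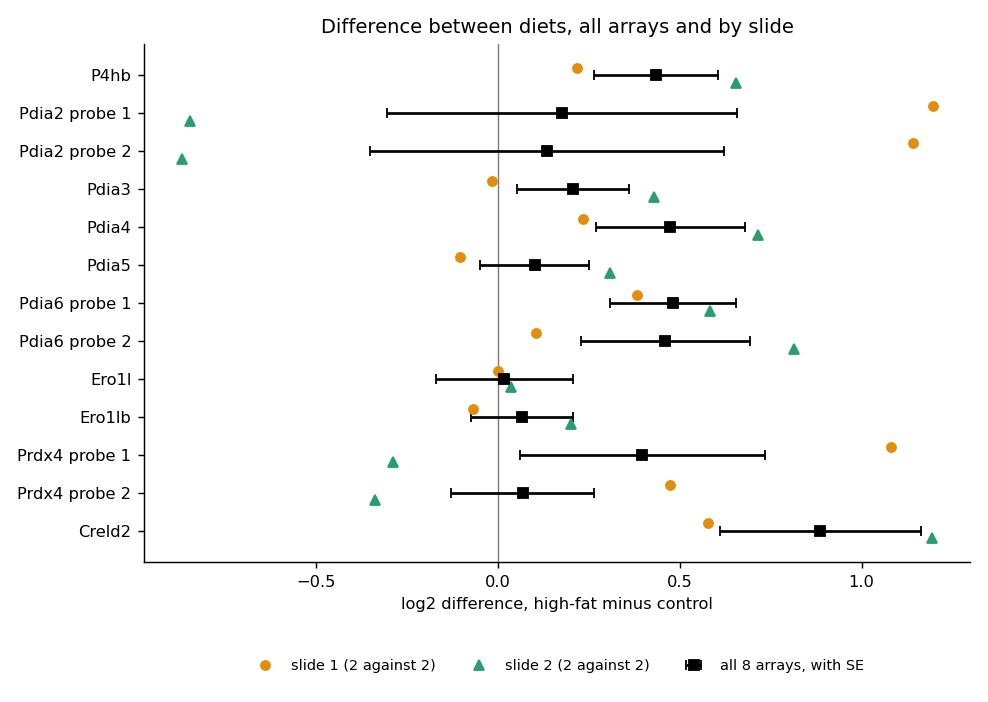
Log2 difference of each member probe, high-fat minus control, over all 8 arrays with its SE (squares), on slide 1 (circles) and on slide 2 (triangles). Slide 2 gives larger values than slide 1 for P4hb, Pdia3, Pdia4, Pdia5, Pdia6, Ero1l, Ero1lb and Creld2, and smaller ones, below 0, for Pdia2 and Prdx4. With normexp background correction the squares of Pdia2, Pdia3, Pdia5, Pdia6 probe 2, Ero1lb and Prdx4 probe 1 fall below 0. When the spots of high background are left out, only that of Ero1lb does, at -0.0038.

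With 1 probe a gene, the median difference of the 10 members was 0.30, against -0.0013 over 19995 genes. It turned to -0.018 with normexp background correction, and was 0.29 when the spots of high background were left out. Related genes were set beside the members by lists, each gene read by the probe with the highest mean. Over all genes 49.7% lay above 0, and an unadjusted p under 0.05 was reached by 2.43% upward and 3.32% downward. No gene in any of these lists passed the adjusted threshold. Of 13 other thioredoxin-fold proteins of the ER 10 lay above 0 and 3 below, with none at an unadjusted p under 0.05. Their median of 0.15 was -0.16 with normexp background correction, and 0.16 when the spots of high background were left out. Erp27 stood at 0.53 ± 0.58 (SE), on 3 high-fat and 4 control arrays, and the secretory factor Erp29 at 0.26 ± 0.16. Both turned sign with normexp background correction. Pdilt and Agr3 were not tested.

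Among 11 other genes of thiol oxidation and reduction in the ER 10 lay above 0, and the genes that reached an unadjusted p under 0.05 were 3, all higher. They were Sep15, a selenoprotein that binds the glucosyltransferase of glycoprotein folding (0.33 ± 0.11, SE), the sulfhydryl oxidase Qsox1 (0.44 ± 0.15) and the selenoprotein Selm (0.39 ± 0.16). For Sep15 the 4 high-fat arrays exceeded all 4 controls. The vitamin K epoxide reductase Vkorc1 stood at 0.37 ± 0.19. The median of 0.20 turned to -0.018 with normexp background correction, as did the signs of Sep15, Selm and Vkorc1. Without the spots of high background the median with normexp was 0.21. All 4 partner subunits of P4hb, the prolyl hydroxylase subunits P4ha1, P4ha2 and P4ha3 and the lipid transfer protein Mttp, lay above 0, with a median of 0.30 and none at an unadjusted p under 0.05. P4ha2 stood at 0.32 ± 0.21 and P4ha1 at 0.29 ± 0.22.

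The 5 peroxiredoxins outside the ER all lay above 0, and Prdx6 alone reached an unadjusted p under 0.05 (0.34 ± 0.14, SE). Their median of 0.099 was -0.15 with normexp background correction, and 0.11 when the spots of high background were left out. Mitochondrial and peroxisomal Prdx5 stood at 0.093 ± 0.13. Of 16 chaperones and folding partners of the ER 15 lay above 0 and 4, all higher, reached an unadjusted p under 0.05. Their median of 0.32 turned to -0.083 with normexp background correction. Without the spots of high background normexp gave 0.31, with 16 of 16 above 0. The J-domain cochaperone Dnajb11 differed by 0.59 ± 0.16 (SE), Sdf2l1, which assists Dnajb11 and Hspa5, by 0.76 ± 0.24, and the chaperone Hsp90b1 by 0.39 ± 0.12. The chaperone Hspa5, known as BiP, differed by 0.28 ± 0.15, and with normexp background correction Hspa5 and Hsp90b1 turned sign.

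Regulators of the ER stress response and targets of hypoxia had medians near or below 0. Of 8 regulators 3 lay above 0 and 5 below, none at an unadjusted p under 0.05, with a median of -0.063 that was 0.014 with median scaling. Xbp1, the transcription factor spliced by the sensor Ern1, differed by 0.20 ± 0.13 (SE). Atf4 differed by -0.34 ± 0.22, a value that rests on 3 high-fat arrays and 1 control array because its other spots were marked as outliers. Of 11 other genes induced by hypoxia, as Ero1l is, 4 lay above 0 and 7 below, none at an unadjusted p under 0.05, with a median of -0.10 that was 0.011 on slide 1 alone. The glycolytic enzyme Pgk1 stood at 0.34 ± 0.23, on 4 high-fat and 3 control arrays, and the mitophagy receptor Bnip3 at 0.050 ± 0.13.

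**Figure D5:**
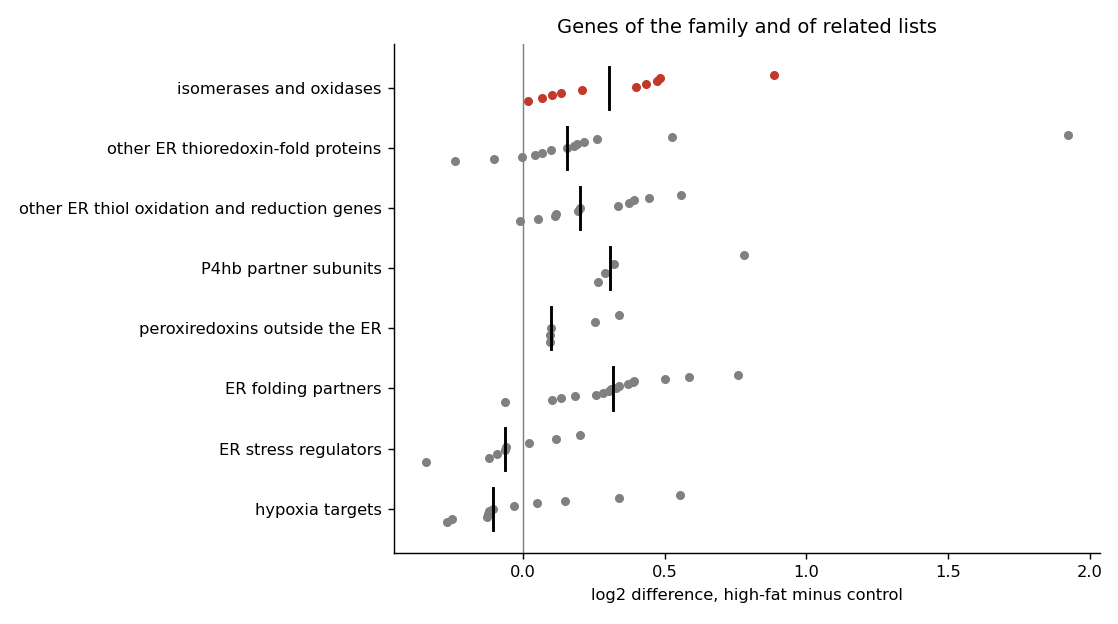
Log2 difference, high-fat minus control, of the 10 member genes (red) and of the genes of 7 related lists (grey), 1 probe a gene, with the median of each list as a bar. The medians of the members and of the ER folding partners stand at 0.30 and 0.32, and those of ER stress regulators and hypoxia targets at -0.063 and -0.10. Normexp background correction puts the medians of the members, ER folding partners, both other ER thiol and thioredoxin lists and peroxiredoxins below 0. With normexp without the spots of high background they stand above 0. With median scaling the median of the regulators stands above 0.

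The genes whose level followed the mean profile of the members most closely over the 8 arrays were named by Pearson correlation among 13910 genes. They were Carhsp1 (r = 0.977), Rnaseh2c (0.976), Polr3k (0.975), Dnajb11 (0.974) and Os9 (0.971), the last a lectin of ER-associated degradation. These values describe 8 points that share slide, scaling and cell makeup. The mean centred level of the members was 0.044, 0.30, 0.063 and 0.23 in high-fat replicates 1 to 4, against -0.33, -0.016, -0.038 and -0.26 in control replicates 1 to 4, and the groups did not overlap. That gap rests on Pdia2 and Prdx4. Without both genes, a choice made after their values were seen, the mean was -0.17, 0.34, 0.19 and 0.31 in high-fat replicates, against -0.17, 0.040, -0.27 and -0.26 in control replicates, and high-fat replicate 1 lay among the controls.

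In samples of many cells, fewer cells of a type and less RNA per cell cannot be told apart. Beta cell markers were split, with 5 of 10 above and 5 below 0, a median difference of -0.078, and an unadjusted p under 0.05 for 1 gene in each direction, and their summed level ran from 9.78 to 10.19 in high-fat samples and from 9.66 to 10.17 in control samples. Alpha cell markers lay below 0 for 6 of 7 genes (median -0.78), 4 at an unadjusted p under 0.05, with summed levels from 8.11 to 8.39 in high-fat samples and from 8.08 to 8.54 in control samples, and the hormone Gcg at -0.17 ± 0.16 (SE). Delta and PP cell markers lay below 0 for 6 of 6 genes (median -0.42), 4 at an unadjusted p under 0.05, with summed levels from 8.28 to 8.51 in high-fat samples and from 8.50 to 8.89 in control samples, and somatostatin (Sst) at -0.39 ± 0.10. Plasma and B cell markers, from cells rich in ER, lay below 0 for 7 of 7 genes (median -1.21), 1 at an unadjusted p under 0.05. The plasma and B cell median was -0.53 with normexp when the spots of high background were left out, -0.26 with the deposited values and -0.19 with normexp on all spots, with 1 or 2 genes above 0. The alpha cell median was -0.31 with the deposited values and -0.48 with normexp. No beta cell marker lay above 0 with normexp on all spots (median -0.39). When the spots of high background were left out, 5 of 10 beta cell markers did (median -0.072). The summed level of plasma and B cell markers ran from -0.66 to 2.27 in high-fat samples and from 1.16 to 2.82 in control samples, with the joining chain Igj at -1.46 ± 1.06. None of the defining markers of these types was below background on any array, and their part in the differences of the family was not tested.

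The remaining marker lists had no gene at an unadjusted p under 0.05. Ductal markers lay above 0 for 4 of 6 genes (median 0.078), endothelial for 6 of 7 (0.083), macrophage for 1 of 6 (-0.37) and stellate cell markers for 6 of 8 (0.20). The ductal median turned to -0.21 on slide 2 alone and was 0.63 on slide 1 alone, the macrophage median was -0.15 with normexp, and the stellate median was 0.097 with the deposited values. Summed ductal levels ran from 2.92 to 3.33 in high-fat samples and from 2.52 to 3.14 in control samples, with Krt19 at 0.16 ± 0.63 (SE). Endothelial levels ran from 4.53 to 5.03 in high-fat and from 4.38 to 4.88 in control samples, with Pecam1 at -0.12 ± 0.14. Macrophage levels ran from 2.88 to 3.44 in high-fat and from 3.22 to 4.02 in control samples, with Cd68 at 0.010 ± 0.27. Stellate cell levels ran from 2.27 to 3.20 in high-fat and from 2.22 to 2.74 in control samples, with Col1a1 at 0.24 ± 0.63. Egln3 among the hypoxia targets and the markers Cftr, Pou3f4 and Tnfrsf17 were not tested.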

How the data were processed

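RNA of 8 samples was measured on 1-colour Agilent arrays. Per the file headers, the spot intensity values were made with Feature Extraction 11.5.1.1, background subtraction included. The deposited value table holds log2 values per probe, for which the submitters' processing notes name limma. Its normalization steps, not given in the sources used here, could not be traced. Its column medians ran from 8.681 to 8.689, and per array it correlated with the scanner levels at 0.912 to 0.932, so its scale is taken as log2, its centring is unknown and its direction is that of the scanner values.

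The log2 of the processed signal was taken and each array's 75th percentile subtracted. Control spots and outlier spots (125 to 228 of 43020 spots per array) were left out, and spots of a probe averaged. A probe entered the fit if 4 or more of its 8 arrays were well above background. Probes were fitted 1 by 1 with limma 3.58.1 (lmFit, eBayes) in R 4.3.3, all 8 arrays without covariates, and p-values adjusted by Benjamini and Hochberg over 26082 probes. The number of arrays limits the precision: a log2 difference had a median SE of 0.17. The procedure was tested on simulated normal noise for 19860 probes, 1 a gene, with known shifts added. At an adjusted p under 0.05 it called 57 of 100 shifts of 1 on the log2 scale and 84 of 100 shifts of 2. There were 12 false calls. Smaller shifts were not simulated, nor were deviations that many probes of an array share, so these rates may not hold for the arrays here. Python 3.11.15, pandas 2.3.3, numpy 2.4.6 and matplotlib 3.10.9 were used for tables and figures.

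The members and the gene lists were chosen with earlier results of these data known. All member probes are named. Of each pathway list the text names up to 3 genes per direction with the smallest unadjusted p under 0.05 and the 2 with the highest mean, and of each cell type list the first gene. Probe positions are on mm9, from the scanner files, and promoter windows are those of RefSeq on GRCm38.p6. In all, 21 alternatives were tried: normexp with an offset of 50, with and without spots whose local background exceeded 4 times the array's median, quantile and median scaling, the deposited values, no filter or a filter on all arrays, 1 probe a gene, a trended robust eBayes, the slide as a block, the replicate number as a block, both slides separately, and the omission of each sample. The labels call the samples biological replicates without saying that each is a separate animal, so p-values measure only the spread between these samples.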

Additional observations from a re-analysis of the deposited data

Results flagged for a closer look

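In a group of 4 arrays, the lowest or highest level was singled out where its gap to the next, divided by the group's range, exceeded Dixon's 95% critical value. Chance singles out about 1 in 20 groups (5%), and here 5 of 26 groups were. The groups come from probes read on the same arrays and are not independent, so the count is no test of an excess. High-fat replicate 1 stood low for P4hb, at 5.02 against 5.60 for the next high-fat array (gap over range 0.945), and for Pdia6 probe 1, at 6.97 against 7.52 (0.969). High-fat replicate 3 stood low for Ero1l, at -3.20 against -2.78 (0.896), and for Prdx4 probe 2, at -4.03 against -3.60 (0.903). Control replicate 4 stood low for Ero1l, at -3.36 against -2.76 for the next control array (0.881). The cause was not tested for any of them.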

How the results depend on the processing

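Under all 21 alternatives Creld2 (0.43 to 1.19), P4hb (0.010 to 0.65), Pdia4 (0.095 to 0.72) and Pdia6 probe 1 (0.060 to 0.62) kept a difference above 0, and no member probe passed the adjusted threshold. Over all probes the adjusted count was 0 except for 1 with the trended robust eBayes (adjusted p = 0.0423). Member probes at an unadjusted p under 0.05, 4 here, came to 0 with normexp background correction, 1 with quantile normalization, 1 with the deposited values and 2 on slide 1 alone, and to between 1 and 5 without single samples. They were 1 without high-fat replicate 2, 3 or 4 or control replicate 1, and 5 without high-fat replicate 1. The median of the members was -0.018 with normexp background correction, where the median of all probes shifts to 0.19. The members' median was 0.29 with normexp without the spots of high background, and 0.20 to 0.43 without single samples. Normexp turned Pdia2 to -0.24 and -0.36 (probes 1 and 2), Pdia3 to -0.20, Pdia5 to -0.15, Pdia6 probe 2 to -0.027, Ero1lb to -0.42 and Prdx4 probe 1 to -0.047, and without smeared spots it turned Ero1lb to -0.0038. On all spots it raised the weakly read Ero1l to 0.49 and Prdx4 probe 2 to 0.64. Quantile normalization gave -0.041 for Pdia2 probe 2 and -0.079 for Ero1lb, and the deposited values -0.065 and -0.10. Slide 1 alone turned Pdia3 (-0.016), Pdia5 (-0.10), Ero1l (-0.0011) and Ero1lb (-0.069), and slide 2 alone Pdia2 (-0.85 and -0.87) and Prdx4 (-0.29 and -0.34). Without single samples Pdia2 probe 1 ran from -0.16 to 0.57, probe 2 from -0.21 to 0.51, Ero1l from -0.15 to 0.13, Ero1lb from -0.036 to 0.13, Pdia5 from 0.031 to 0.21, Prdx4 probe 1 from 0.18 to 0.71 and Prdx4 probe 2 from -0.044 to 0.18. The cause was not tested. Same-numbered samples deviated together in 3 of 4 pairs (correlations 0.237, 0.394, -0.024 and 0.299), and 6 of 8 arrays correlated best with their own number. This is at most a hint of pairing from the data and not from the design. Same-numbered arrays also lay on the same slide at neighbouring positions, so pairing of samples cannot be told apart from slide and position. As not every pair's correlation was over 0.1, the numbers were not taken as pairs. With the replicate block 0 probes passed, 2422 (9.29%) were at an unadjusted p under 0.05, as were 3 member probes, and the median of the members was 0.30.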
